A study of Mus musculus with 6 samples.

Results

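The mitochondrial calcium uniporter genes are 6 of the 32285 genes counted in each library, taken by symbol: *Smdt1*, *Mcu*, *Mcub*, *Micu2*, *Micu3*, and *Letm1*. All 6 symbols were found. Single-cell RNA-Seq libraries were made from the isolated islets of 6 mice, 3 of them WT and 3 β14-3-3ζ–KO (KO below), with 1 library per mouse. The mice were on a C57/BL6 background by the labels (C57BL/6J in the study) and were 12 to 14 weeks old. Both genotypes carried Ins1-CreThor, a Cre recombinase inserted in the *Ins1* gene and therefore active in β cells, and the KO mice also carried *Ywhaz* alleles with LoxP sites around exon 4. *Ywhaz* encodes 14-3-3ζ, a scaffold that binds phosphorylated partner proteins. The questions were whether the uniporter genes differed between KO and WT β cells, whether they did so in the other islet cells, in which Cre is not active, and how their levels differ among islet cell types.

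The uniporter is the channel of the inner mitochondrial membrane through which calcium enters the matrix, driven by the membrane potential. MCU forms the pore, and MCUb is a related subunit that conducts poorly and lowers the current when it takes MCU's place. EMRE, the small membrane protein encoded by *Smdt1*, is required for conduction in animals and ties the pore to its gatekeepers. MICU2 and MICU3 are calcium-sensing gatekeepers on the outer face of the pore, and LETM1 is a separate inner membrane protein of cation and proton exchange. In β cells, matrix calcium activates dehydrogenases that feed the respiratory chain, and the ATP so made closes potassium channels of the cell membrane, which starts insulin secretion.

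In the annotation of the mouse genome GRCm38 (mm10), *Smdt1* (ENSMUSG00000022452) lies on the plus strand at chr15:82338959-82349091 and *Micu3* (ENSMUSG00000039478) on the plus strand at chr8:40307458-40386308. The other 4 lie on minus strands, *Mcu* (ENSMUSG00000009647) at chr10:59446984-59616692, *Mcub* (ENSMUSG00000027994) at chr3:129914960-129970206, *Micu2* (ENSMUSG00000021973) at chr14:57916261-57999262, and *Letm1* (ENSMUSG00000005299) at chr5:33739673-33782817. *Smdt1* shares 245 exon bases on its own strand with *Pheta2*, and none of them is in the last exon of *Smdt1*, where 3′ reads are expected. *Pheta2* itself had 2 to 11 unique molecular identifiers (UMIs) per library in β cell–like cells.

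Each library held 74083947 to 98294915 UMIs in 4400 to 10722 barcodes, of which 51 to 107 per library also occurred in another library. After filtering, 8 cell types had at least 10 cells in every library and were named from their markers: β, α, δ, endothelial, stellate, macrophage, B, and T cell–like cells. Ductal and dendritic cell–like cells were also named but not compared. Ductal had 7 cells in KO library 2, and dendritic had 2 cells in WT library 3. UMIs were summed per library and type and scaled to CPM (counts per 1000000 UMIs) with TMM factors, so a mouse, not a cell, was the unit of replication. A 3′ count stands for a captured transcript whatever its length. There were 819 to 965 WT and 1036 to 1281 KO β cell–like cells per library. *Ywhaz* was at 188.7, 215.1, and 203.5 CPM in the WT β sums and at 24.1, 24.3, and 23.3 CPM in the KO sums, where 3′ reads need not cover the deleted exon. For the genotype comparison in β cell–like cells, only KO cells without any *Ywhaz* UMI were used, after the study's removal of incompletely deleted cells, which kept 630 to 756 cells per KO library. The median UMIs per cell were then 27886 to 41751 in WT and 21686.5 to 28820.5 in KO. The smallest sums were the B cell–like cells of KO library 1, with 13 cells, and the T cell–like cells of WT library 3, with 10 cells. *Ins2* UMIs were also found in the other types. Their share against that in the β sums served as an estimate of RNA set free from β cells. A barcode holding a β cell beside another cell would raise it too, and the part of each was not tested. The estimate was 10.4% to 14.8% of the UMIs in δ, 2.23% to 10.9% in α, 5.32% to 24.2% in endothelial, 1.17% to 25.8% in stellate, 1.81% to 16.2% in macrophage, 3.47% to 39.3% in B, and 11.0% to 73.6% in T cell–like cells. The highest, 73.6%, was in the T cell–like cells of KO library 1, which were 17 cells with 199902 UMIs and a median of 5201.

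In β cell–like cells, none of the 6 uniporter genes passed the test of KO against WT (edgeR, adjusted p under 0.05 and absolute log2 fold change above 0.1). *Smdt1* had the largest difference of the 6, with every KO library above every WT library. The study, at the same thresholds, reported *Smdt1* as significantly upregulated in KO β cells. *Mcu*, *Mcub*, *Micu2*, *Micu3*, and *Letm1* overlapped between the genotypes. Of the 9350 genes tested, 0.0107% were called, which was *Ywhaz* alone, the gene by which the KO cells had been selected. With the replicate number as a block, 18 genes were called, 5 higher and 13 lower, and again no uniporter gene was among them. Before adjustment, 450 genes, or 4.81%, had a p under 0.05, and 1 of the 6 uniporter genes did. DESeq2 called 7 genes and no uniporter gene.

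The pore gene *Mcu* was among the lowest of the 6 in counts, with 129 to 258 UMIs per library. It stood at 7.91, 7.51, and 7.51 CPM in the WT libraries and at 7.79, 8.58, and 8.41 CPM in the KO libraries. KO library 1 fell inside the WT range. The log2 fold change was 0.11 (SE 0.096, 95% interval -0.11 to 0.33, edgeR adjusted p = 0.886). *Mcub*, the gene of the less conductive subunit, stood at 5.67, 7.14, and 5.03 CPM in WT and at 7.51, 7.12, and 6.0 CPM in KO. The 2 genotypes overlapped, since WT library 2 was above 2 of the 3 KO libraries. Its log2 fold change was 0.22 (SE 0.16, 95% interval -0.14 to 0.57, edgeR adjusted p = 0.881).

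*Smdt1*, the EMRE gene, had 3728 to 5745 UMIs per library. It stood at 154, 167, and 167 CPM in WT and at 173, 248, and 188 CPM in KO. The KO libraries were all above the WT libraries, but KO library 1 exceeded the highest WT library by little and KO library 2 stood well above the other two. The means were 163 ± 7.48 CPM in WT and 203 ± 39.5 CPM in KO (SD, n = 3 each). The log2 fold change was 0.32 (SE 0.13, 95% interval 0.030 to 0.61), with an unadjusted p of 0.034 and an adjusted p of 0.881 by edgeR's quasi-likelihood test. The 2-sided exact permutation test gave p = 0.1, the smallest that 3 libraries against 3 allow. Of all genes tested in β cell–like cells, 5.79% had every KO library above every WT library. Without KO library 2 the *Smdt1* difference was 0.15 on the log2 scale (edgeR adjusted p = 0.999, against 0.189 to 1.000 over all alternatives, DESeq2 included). With cells thinned to 5000 UMIs, and those with fewer left out, it was 0.33, and it was 0.32 when no KO cell was removed for *Ywhaz*.

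The gatekeeper gene *Micu2* stood at 37.5, 31.4, and 35.1 CPM in WT and at 35.8, 35.8, and 32.0 CPM in KO. All 3 KO values lay within the WT range. Its log2 fold change was -0.0080 (SE 0.088, 95% interval -0.21 to 0.19, edgeR adjusted p = 0.990). *Micu3*, the other gatekeeper gene measured here, stood at 42.7, 48.4, and 45.2 CPM in WT and at 42.0, 43.6, and 41.7 CPM in KO. Each KO library was below the WT library of the same number, yet KO library 2 was above WT library 1. The log2 fold change was -0.099 (SE 0.072, 95% interval -0.26 to 0.064, edgeR adjusted p = 0.881). *Letm1*, the exchanger gene, stood at 29.0, 31.0, and 30.9 CPM in WT and at 28.9, 28.8, and 30.2 CPM in KO. KO library 3 lay within the WT range, and the log2 fold change was -0.047 (SE 0.071, 95% interval -0.21 to 0.11, edgeR adjusted p = 0.928).

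**Figure D1:**
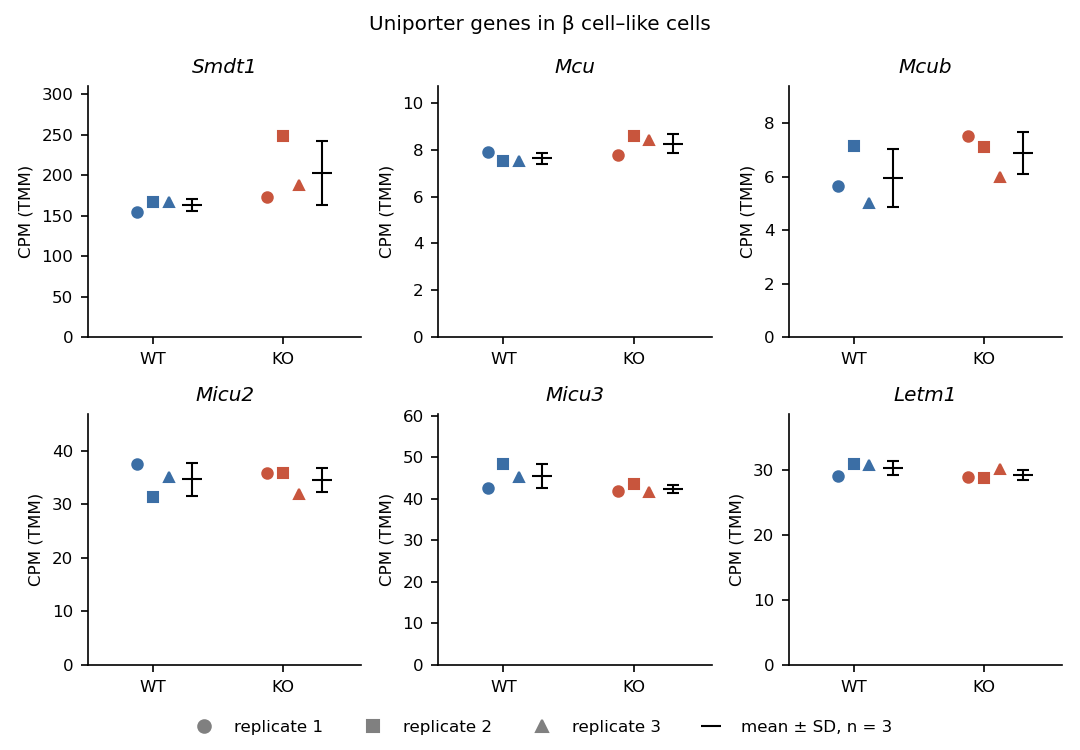
Level of each uniporter gene in β cell–like cells, in CPM after TMM scaling, with a point for each library (circle, square, and triangle for replicates 1, 2, and 3) and a bar for the mean ± SD of the 3 WT (blue) and 3 KO (red) libraries. Only *Smdt1* has its 3 KO points above its 3 WT points, with KO library 2 at 248 CPM, and the SD bars overlap between the genotypes for every gene, *Smdt1* included.

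Ratios between 2 members within a library do not depend on how the library was scaled, and 3 such ratios were tested. UMIs of *Smdt1* outnumbered those of *Mcu* by 19.5, 22.2, and 22.3 times in the WT libraries and by 22.2, 28.9, and 22.4 times in the KO libraries. The log2 ratio was higher by 0.19 in KO (2-sided exact permutation test, p = 0.2). *Mcub* to *Mcu* was 0.717, 0.951, and 0.671 in WT and 0.965, 0.829, and 0.713 in KO, a log2 difference of 0.11 (exact permutation p = 0.6). *Micu3* to *Micu2* was 1.14, 1.54, and 1.29 in WT and 1.17, 1.22, and 1.30 in KO, a log2 difference of -0.093 (exact permutation p = 0.7). In each of the 3 the genotypes overlapped. These are ratios of 3′ counts and are not read as subunit ratios of the protein complex.

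A list of 35 other genes of mitochondrial calcium handling was read from the same fit. It holds the outer membrane channels, the calcium-dependent carriers and dehydrogenases, and the endoplasmic reticulum (ER) channels and pumps that supply the calcium. Of these, 30 were tested, 17 leaned higher and 13 lower in KO, and none was called or had an unadjusted p under 0.05 by edgeR; DESeq2 also called none. Their median log2 fold change was 0.0040, against 0.0020 over all genes tested, and none had its KO libraries all on one side of its WT libraries. The 4 with the lowest p were *Ppif*, *Itpr2*, *Vdac1*, and *Atp2a3*. *Ppif*, the gene of cyclophilin D of the permeability transition pore, stood at 5.61, 6.95, and 6.98 CPM in WT and at 6.87, 8.38, and 7.72 CPM in KO (log2 fold change 0.23, SE 0.13). *Itpr2*, an IP3 receptor of the ER, stood at 38.4, 23.4, and 35.5 CPM in WT and at 32.8, 17.8, and 24.1 CPM in KO (log2 fold change -0.37, SE 0.23). *Itpr2* was lowest in library 2 of both genotypes. *Vdac1*, the main outer membrane channel, differed by 0.13 (SE 0.086) and *Atp2a3*, the SERCA3 calcium pump, by -0.11 (SE 0.083) on the log2 scale, with overlapping libraries in both.

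**Figure D2:**
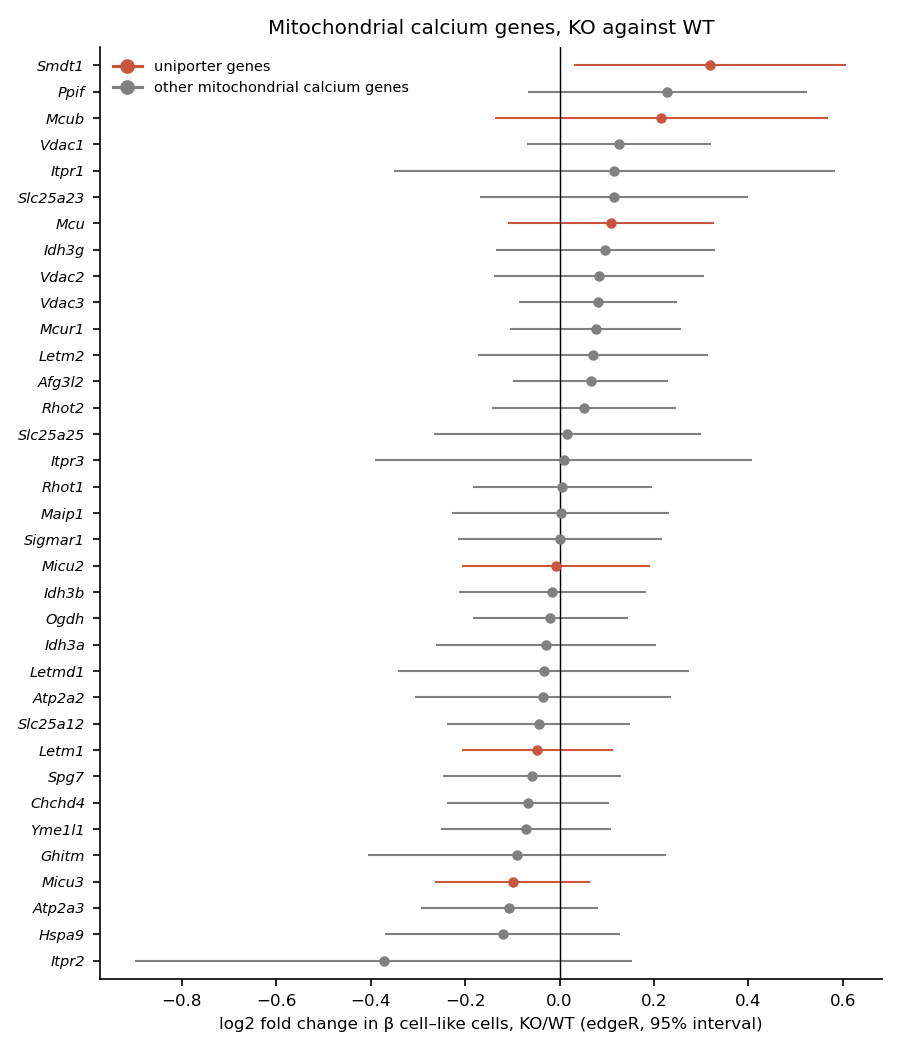
Log2 fold change of KO against WT in β cell–like cells for the 6 uniporter genes (red) and tested genes of the other mitochondrial calcium list (grey), with 95% intervals from edgeR before adjustment for the number of genes. The interval of *Smdt1*, 0.030 to 0.61, is the only one drawn that leaves out 0.

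In the other 7 types the uniporter genes also did not pass the test. The 6 genes in 8 types make 48 pairs, of which 39 were seen in over 15% of cells in WT or KO and were tested. Of the 33 tested pairs outside β cell–like cells, none was called and none had an unadjusted p under 0.05 by edgeR, with a lowest adjusted p of 0.806. In the reported fit, which had no replicate block, edgeR called no gene of any kind in these types (0% in each). In that fit, 4.29% of their pairs of gene and type had an unadjusted p under 0.05. With no filter on low genes, edgeR called up to 119 genes in a type (T cell–like cells), and no uniporter gene. DESeq2 called 1 gene in endothelial, 2 in macrophage, and 5 in T cell–like cells, and no uniporter gene. With the replicate block, edgeR called 45 genes in macrophage, 9 in endothelial, 7 in B, and 4 in δ cell–like cells, none in the other types, and no uniporter gene. The pairs left untested were *Mcu* and *Micu3* in macrophage, B, and T cell–like cells, *Mcub* in B and T cell–like cells, and *Letm1* in B cell–like cells.

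*Smdt1* had a log2 fold change above 0 in all 8 types, although no one of them was called. In the endocrine types it stood at 222, 280, and 291 CPM in the WT and 265, 305, and 313 CPM in the KO α sums (log2 fold change 0.15, SE 0.12), and at 215, 259, and 230 CPM in the WT and 226, 310, and 264 CPM in the KO δ sums (0.18, SE 0.11). In endothelial cell–like cells it was at 208, 250, and 212 CPM in WT and 220, 328, and 246 CPM in KO (log2 fold change 0.25, SE 0.16). The values of these 3 types overlapped between genotypes. In stellate cell–like cells *Smdt1* was at 192, 310, and 286 CPM in WT and 268, 343, and 296 CPM in KO (log2 fold change 0.20, SE 0.25), and the log2 fold change was 0.012 without WT library 1 and -0.015 with cells thinned to 5000 UMIs. Thinning left out cells with fewer UMIs, and kept 12 of the 20 stellate cell–like cells of WT library 3. The log2 fold changes in macrophage, B, and T cell–like cells were 0.17, 0.40, and 0.25. Leaving out 1 library lowered the log2 fold change to 0.056 in endothelial, 0.068 in T, and 0.062 in δ cell–like cells (without KO library 2), and to 0.049 in α, 0.097 in T, and 0.24 in B cell–like cells (without WT library 1). Across the types the same libraries stood at the ends, since WT library 1 had the lowest *Smdt1* of the 6 libraries in all 8 types and KO library 2 the highest in 6 of the 8. With all types scaled together, WT library 3 was lower than WT library 1 in endothelial and T cell–like cells. In 6 of the 8 types *Smdt1* was higher in KO than in WT in all 3 pairs of one replicate number, a pattern shown by 15% of all tested pairs of gene and type. The estimated share of free β cell RNA was also highest in KO library 2 in δ (14.8%), α (10.9%), endothelial (24.2%), macrophage (16.2%), and B cell–like cells (39.3%), and it was lowest in WT library 1 in all 7 types. Of the genes tested in all 8 types, 7.85% had a log2 fold change above 0 in every one. The sums of one library come from one mouse, so the 8 types are not 8 separate observations, and the part of free β cell RNA and of single libraries in this pattern was not tested.

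Beyond *Smdt1* in β cell–like cells, 2 pairs did not overlap between the genotypes. *Mcub* in α cell–like cells was at 15.3, 17.6, and 18.0 CPM in WT and at 18.7, 26.2, and 18.3 CPM in KO (log2 fold change 0.31, SE 0.20, edgeR adjusted p = 1.000), on 19 to 74 UMIs per library. In these cells 4.63% of genes had every KO library above every WT library. *Micu3* in stellate cell–like cells was at 25.01, 26.3, and 27.6 CPM in WT and at 17.0, 22.6, and 21.8 CPM in KO (log2 fold change -0.32, SE 0.30, edgeR adjusted p = 1.000), where 3.21% of genes had every KO library below every WT library. Over all 8 types, 3 of the 39 tested pairs of the uniporter genes did not overlap, against 9.62% of all tested pairs of gene and type. *Micu3* had a log2 fold change below 0 in each of the 5 types in which it was tested, from -0.32 in stellate to -0.054 in α cell–like cells. These types share the same mice, and the share of all genes with such a pattern was not computed. Without a single library the value rose to 0.093 in endothelial, 0.019 in α, and 0.0062 in δ cell–like cells. The log2 fold changes ranged from -0.33 to 0.21 for *Mcu* over 5 types, from -0.36 to 0.31 for *Mcub* over 6, from -0.17 to 0.042 for *Micu2* over 8, and from -0.17 to 0.21 for *Letm1* over 7.

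**Figure D3:**
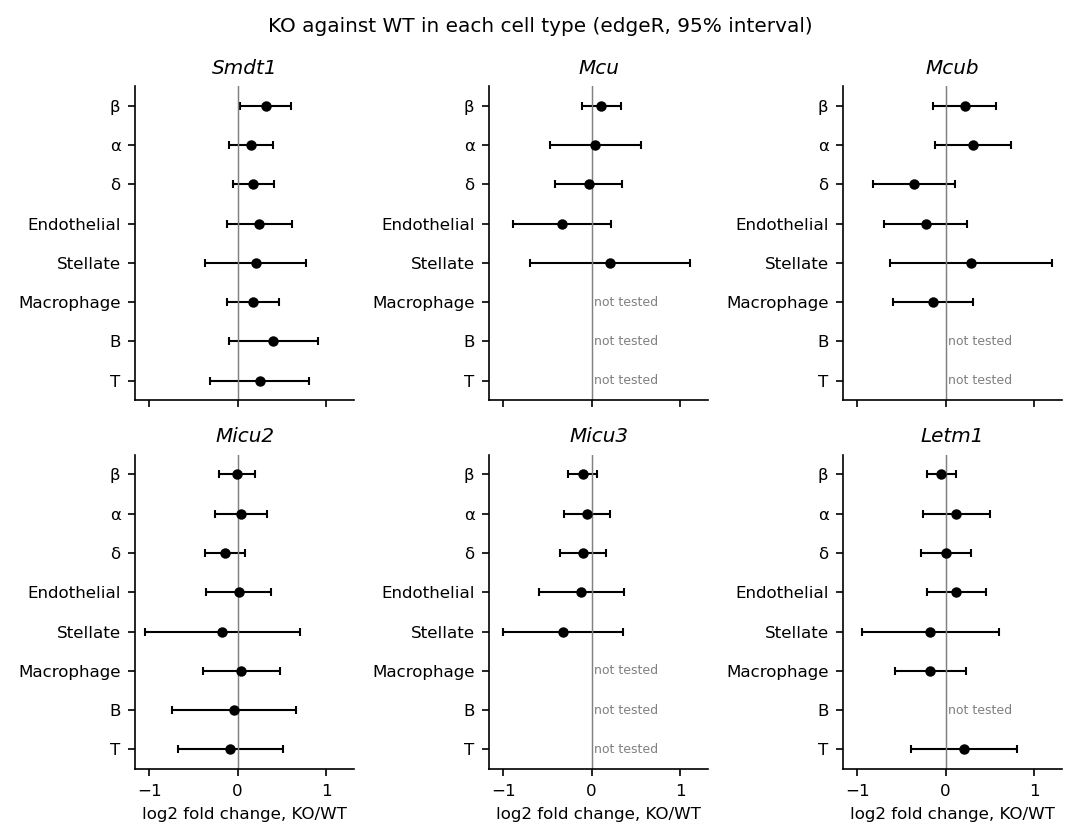
Log2 fold change of KO against WT for each uniporter gene in each cell type, with 95% intervals from edgeR before adjustment (3 WT and 3 KO libraries). The 8 points of *Smdt1* lie to the right of 0, from 0.15 to 0.40, and only the interval for β cell–like cells leaves out 0; the intervals are widest in stellate, B, and T cell–like cells, and pairs under the 15% filter are marked as not tested.

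Whether the genotype difference itself differed between β cell–like cells and another type was tested with an interaction term. None of the 42 terms of the uniporter genes was called (edgeR, adjusted p under 0.05), against 0.00792% to 0.0158% of the 12627 genes in a term, which is 1 or 2 genes. For 2 terms the unadjusted p was under 0.05, *Micu3* in B cell–like cells (0.57 on the log2 scale, edgeR adjusted p = 0.576) and *Mcub* in δ cell–like cells (-0.59, edgeR adjusted p = 1.000). For *Smdt1*, the genotype difference in the other types was between 0.13 lower and 0.0037 higher than in β cell–like cells on the log2 scale. A *Smdt1* difference particular to β cell–like cells was therefore not shown.

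Between cell types, 2 of the uniporter genes were called. Among the types compared, *Micu3* was highest in the endocrine types, *Mcub* was highest in macrophages, and the other 4 were not called in any type. All types were scaled together here, no KO cell was removed for *Ywhaz*, and each type was compared with β cell–like cells within libraries (edgeR, adjusted p under 0.05 and absolute log2 fold change above 1). There were 8 calls among the 42 comparisons, 5 of them of *Micu3* and 3 of *Mcub*. Calls were common among all 12627 genes. In a single comparison, 7.75% (α) to 21.6% (stellate) were called higher and 4.52% (δ) to 27.4% (B) lower.

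*Micu3* had a mean of 59.0 ± 3.35 CPM in β, 52.6 ± 3.25 CPM in α, and 52.4 ± 5.86 CPM in δ cell–like cells (SD, n = 6 libraries). These 3 ranges overlapped, from 56.6 to 65.2, 47.8 to 57.8, and 42.8 to 57.8 CPM. Next came stellate cell–like cells at 19.9 ± 3.23 CPM, with a highest library of 22.9 CPM, below every endocrine sum. T (19.2 ± 6.74 CPM), B (18.6 ± 5.11 CPM), endothelial (15.2 ± 2.11 CPM), and macrophage cell–like cells (11.8 ± 5.28 CPM) followed, each overlapping its neighbor in the order. The log2 fold changes against the β sums were -1.56 (SE 0.13) in stellate, -1.61 (SE 0.13) in T, -1.61 (SE 0.13) in B, -1.96 (SE 0.11) in endothelial, and -2.29 (SE 0.15) in macrophage cell–like cells, all called lower. Without single libraries the endothelial value ran from -1.92 to -1.81, a range that does not hold the reported -1.96. A lower level outside β cells was common, since the share of all genes called lower was 21.7% in stellate, 23.9% in T, 27.4% in B, 26% in endothelial, and 26.9% in macrophage cell–like cells. With the estimated free β cell RNA subtracted, the differences were larger, from -1.84 in stellate to -2.93 in T cell–like cells. *Micu3* in α and in δ cell–like cells differed from β by -0.17 on the log2 scale (SE 0.092 and 0.087).

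*Mcub* was at 49.2 ± 8.66 CPM in macrophage cell–like cells, from 36.5 to 59.6 CPM, above every other sum. Its log2 fold change against β cell–like cells was 2.48 (SE 0.16, edgeR adjusted p = 4.8e-19), with 20% of all genes called higher in macrophages. α cell–like cells followed at 18.8 ± 3.81 CPM, from 15.1 to 26.2 CPM, a log2 fold change of 1.12 (SE 0.16, edgeR adjusted p = 3.9e-08), with 7.75% of genes called higher in α. The α range stood clear of β cell–like cells at 8.7 CPM (from 6.7 to 10.1 CPM). Endothelial (12.9 CPM), stellate (11.7 CPM), and δ cell–like cells (11.7 CPM) lay between α and β and overlapped each other, and the highest stellate library, at 16.4 CPM, reached into the α range. T cell–like cells had a mean of 6.7 CPM, with no *Mcub* UMI in WT library 3, which allows up to 59.4 CPM. B cell–like cells had 48 *Mcub* UMIs in all 6 libraries together, a mean of 3.5 CPM. Of the B sums, 3 held no *Mcub* UMI, which allows up to 2.59 CPM in WT library 1, 27.7 CPM in WT library 3, and 6.91 CPM in KO library 3 (3 UMIs, counting error only). The *Mcub* level of B cell–like cells was called lower, by a log2 fold change of -1.55 (SE 0.25, edgeR adjusted p = 4.3e-07), where 27.4% of all genes were called lower.

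*Mcu* was low in every type compared, from 17.9 ± 4.88 CPM in endothelial and 14.8 ± 1.79 CPM in δ to 10.6 ± 0.44 CPM in β and 7.8 ± 2.64 CPM in macrophage cell–like cells. Every neighbor in that order overlapped. The largest *Mcu* difference from β cell–like cells, 0.75 in endothelial cell–like cells (SE 0.13, edgeR adjusted p = 2.1e-06), passed the adjusted p but not the fold limit. WT library 1, at 26.9 CPM, was the highest of the 6 there. Macrophage cell–like cells thus had the lowest *Mcu* mean and the highest *Mcub* mean, with more *Mcub* than *Mcu* UMIs (269 against 44). In β cell–like cells there were fewer (1283 against 1571). The *Mcub* mean was also above the *Mcu* mean in α cell–like cells (18.8 against 11.4 CPM), and below it in every other type compared. These values come from UMIs of 2 genes and depend on how well each 3′ end is captured.

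*Smdt1* was the highest of the 6 in UMIs in every type, and its levels were close: 296 ± 33.6 CPM in macrophage, 275 ± 32.7 CPM in α, 245 ± 44.6 CPM in β, 241 ± 44.2 CPM in stellate, 227 ± 29.8 CPM in δ, 213 ± 33.9 CPM in B, 198 ± 29.8 CPM in endothelial, and 180.3 ± 52.1 CPM in T cell–like cells. Each neighbor overlapped, and the log2 fold changes against β cell–like cells ran from -0.35 to 0.29. *Micu2* lay between 50.6 ± 4.40 CPM in δ and 26.3 ± 13.9 CPM in B cell–like cells, with β (46.6 ± 2.61 CPM), α (47.3 ± 4.90 CPM), and macrophage cell–like cells (46.4 ± 6.85 CPM) near the top. Unlike *Micu3*, *Micu2* differed from β by 0.0037 on the log2 scale in macrophages (SE 0.12), and by -0.60 in endothelial cell–like cells (SE 0.11). Without single libraries these *Micu2* differences ran from 0.031 to 0.11 and from -0.53 to -0.50. The reported values lie outside these ranges, and the cause was not tested. *Letm1* was at 48.9 ± 6.05 CPM in macrophage, 48.4 ± 5.93 CPM in endothelial, and 40.2 ± 1.12 CPM in β cell–like cells, with the endothelial and β ranges just apart (lowest 41.9 CPM against highest 41.7 CPM). T (35.8 CPM), stellate (33.7 CPM), B (30.02 CPM), and α cell–like cells (29.3 CPM) followed, and δ cell–like cells were lowest at 23.8 ± 0.89 CPM. The δ difference was -0.75 (SE 0.093, edgeR adjusted p = 2.5e-09), within the fold limit. The 3 endocrine types thus shared a high *Micu3* and not a common *Letm1* level.

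**Figure D4:**
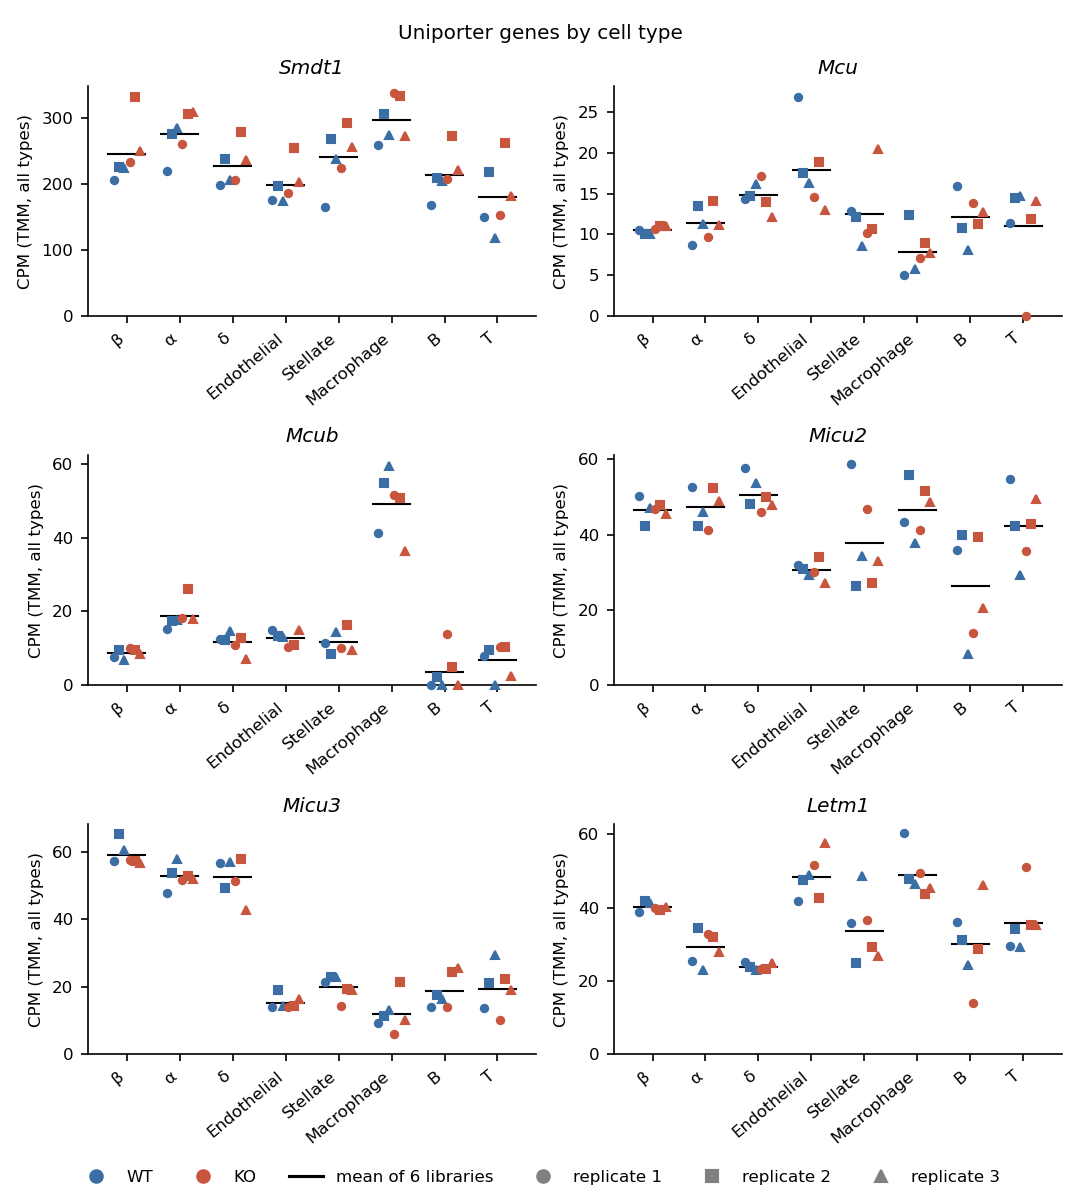
Level of each uniporter gene in each cell type, in CPM after TMM scaling of all types together, with a point for each of 3 WT (blue) and 3 KO (red) libraries and a line at the mean of the 6. *Micu3* is high in β, α, and δ cell–like cells (means 59.0, 52.6, and 52.4 CPM) with means at or below 19.9 CPM in the other types drawn, *Mcub* is highest in macrophages, and in most types KO library 2 (red square) has the highest *Smdt1*.

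Of the 35 other mitochondrial calcium genes, 34 were tested between types, and 20 of them were called in some type. The share of all genes called in some type was not computed, so the count of 20 is not read as a result. Shares are given for each type alone. Called higher than β were 1 in α (7.75% of all genes were), 3 in δ (8.96%), 3 in endothelial (20.7%), 4 in stellate (21.6%), 4 in macrophage (20%), 3 in B (17.5%), and 3 in T cell–like cells (17.1%). Called lower were 6 in α (8.02% of all genes) and 6 in δ (4.52%), 5 in stellate (21.7%) and 5 in T (23.9%), 6 in B (27.4%), 8 in endothelial (26%), and 8 in macrophage cell–like cells (26.9%). Their median log2 fold change was below 0 in every type but macrophage cell–like cells, and the median of all genes was also below 0, from -0.22 in B to -0.011 in δ cell–like cells. The 6 with the lowest p were *Slc8b1*, *Itpr1*, *Vdac2*, *Atp2a3*, *Ghitm*, and *Slc25a24*. *Slc8b1*, which encodes NCLX, the sodium-dependent exporter of matrix calcium, was at 1.7 CPM in β and at 73.3 CPM in macrophage cell–like cells, and so differed by 5.38 on the log2 scale. It was called higher in 4 types, which were macrophage, stellate (10.4 CPM), endothelial (8.07 CPM), and B cell–like cells (4.34 CPM). *Itpr1*, an IP3 receptor, was at 45.4 CPM in β, 325.9 CPM in α, and 331.9 CPM in δ cell–like cells, with log2 fold changes of 2.83 and 2.87. *Atp2a3* was highest in the β sums (mean 240.2 CPM) and was called lower in all 7 other types. *Ghitm*, an inner membrane protein of calcium and proton exchange, was also highest there (mean 275.6 CPM) and was called lower in 3 types. *Vdac2*, an outer membrane channel, was called higher in endothelial and macrophage cell–like cells, and *Slc25a24*, a calcium-dependent carrier of ATP, was called higher in 5 types.

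Within the β cell–like cells, 3 clusters could be compared by their own levels, given without a test since the cells were clustered on these libraries (the uniporter genes were left out of the genes used for clustering). The largest, of 3504 cells, had 34.7% of its UMIs from the insulin genes, the second, of 1992 cells, 47.5%, and the third, of 608 cells with a median of 2457.5 genes, 71.5%. *Micu3* was at 54.7, 37.4, and 8.96 CPM of all UMIs in these clusters. *Micu2* was at 41.6, 31.9, and 9.82 CPM, *Letm1* at 35.9, 27.8, and 6.95 CPM, *Mcu* at 9.43, 7.15, and 2.54 CPM, and *Mcub* at 7.99, 5.38, and 2.01 CPM. Pooled over the libraries, these 5 genes were lower where insulin took more of the UMIs. The CPM of any other gene falls as the insulin share rises, so this order is partly built into the measure. Levels per UMI outside the insulin genes were not compared. *Smdt1*, under the same limit, was at 184, 197, and 108 CPM. Its first 2 values turn with the libraries, since from the largest to the second cluster it went from 153 to 152, from 183 to 170.1, and from 186 to 179.8 CPM in the WT libraries and from 181 to 189, from 219 to 246, and from 198 to 203 CPM in the KO libraries. Without the third cluster the KO against WT log2 fold change of *Smdt1* was 0.35 (edgeR adjusted p = 0.891).

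The genes whose levels ran most like a member's over the 48 sums of 6 libraries and 8 types were found by Pearson's r of log2(CPM + 1) among 9241 genes with a mean of at least 10 CPM. For *Micu3* they were *Hmgn3* (r = 0.922), *Ptpn4* (0.914), and *Cplx2* (0.908). For *Mcub* they were *Specc1* (r = 0.840), *Scoc* (0.830), and *Tmem205* (0.830). For *Smdt1* they were *Atpif1* (r = 0.840), *Trappc2l* (0.817), and *Micos10* (0.807), and for *Micu2* *Ssx2ip* (0.816), *Naa40* (0.809), and *Entpd7* (0.801). The best likeness was weaker for *Letm1* (*Acsl5* 0.762, *Sh3glb1* 0.752, *Tmem189* 0.748) and for *Mcu* (*Cnep1r1* 0.754, *Pus3* 0.753, *Slc41a1* 0.753). Among the members, the highest r was 0.57 between *Smdt1* and *Mcub* and the lowest -0.42 between *Micu3* and *Letm1*, so no 2 members followed each other as closely as their nearest other genes did. The sums share libraries, depth, and the estimated free β cell RNA, and these r values are descriptions of them.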

How the data were processed

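Gene by barcode tables of UMI counts, deposited by the authors as unnormalized counts from Cell Ranger 6.0.2 (10x Genomics 3′ libraries, mm10), were read for 3 WT and 3 KO libraries. Each count is a whole number of UMIs. Barcodes with at least 500 genes and under 10% mitochondrial UMIs were kept, and doublets were left out with Scrublet (0.8% per 1000 cells). Cells were clustered with scanpy 1.11.5 (2000 variable genes, 30 principal components, 15 neighbors, Leiden resolution 1, Python 3.11.15), without the uniporter and other mitochondrial calcium genes. Clusters were named from fixed markers, with at least 3 markers detected, a median of at least 3500 UMIs, and no lead by another type's markers; these limits were set after the clusters had been seen. A type was compared where each library had 10 or more of its cells.

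UMIs were summed per library and type and tested in R 4.3.3 with edgeR 4.0.16 (quasi-likelihood test, TMM, Benjamini-Hochberg over all genes tested). The thresholds follow the study: detection in over 15% of cells in WT or KO, adjusted p under 0.05, and absolute log2 fold change above 0.1. Between types, filterByExpr, a block for the library, and a limit of 1 on the log2 scale were used. DESeq2 1.42.0, other scalings and filters, and fits without each library were alternatives. The fits were tested on simulated counts. Free β cell RNA was estimated from *Ins2*, and intervals from counts cover counting error only.

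The members and gene lists were chosen with earlier results of these data known. Named genes were the 6 members, of the other mitochondrial calcium genes the 6 with the lowest p among those called between types and, as none was called in β cell–like cells, the 4 with the lowest p there, and the 3 genes most like each member. In β cell–like cells the deviations of same-numbered WT and KO libraries from their genotype means correlated at 0.542, 0.478, and 0.221. Libraries of different numbers correlated at -0.503 to 0.0429. The deviations of a genotype sum to 0, so these values depend on each other. Whether the libraries were prepared in pairs is not given in the sources used here. The replicate block was therefore an alternative and not the reported fit. Chromosome positions are from GENCODE vM21. Values of 1 gene of the other mitochondrial calcium list are not reported here, although it is counted in the list.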

Additional observations from a re-analysis of the deposited data

Results flagged for a closer look

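Among the clusters with a median of at least 3500 UMIs per cell, 4 could not be given a cell type from the fixed markers, so they entered no comparison. Their uniporter genes were flagged because signal was present in cells outside the comparisons. Levels are CPM of all UMIs of a cluster over the 6 libraries, with no scaling and no test. Ductal (338 cells) and dendritic cell–like cells (284 cells) were named but had too few cells in some libraries, so they also entered no comparison. By the same measure, ductal cell–like cells had 29.1 CPM of *Mcu* and 32.7 CPM of *Micu3*, and endothelial cell–like cells 21.2 and 18.0 CPM. Dendritic cell–like cells had 13.8 CPM of *Mcu* and 15.9 CPM of *Micu3*.

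A cluster of 1286 cells led by the pancreatic polypeptide genes *Ppy* and *Pyy* had 50.4 CPM of *Micu3*, 39.7 CPM of *Micu2*, 10.1 CPM of *Mcu*, 9.97 CPM of *Mcub*, 214.6 CPM of *Smdt1*, and 29.5 CPM of *Letm1*. This cluster also held 3 of 7 α markers and 3 of 4 δ markers, so its levels are not those of pancreatic polypeptide cells alone. Its *Micu3* lay between 43.6 and 54.1 CPM in the single libraries. A cluster of 281 cells led by *Mgp*, *Igfbp5*, and *Pdgfrb*, genes of mural and connective tissue cells, which also held endothelial markers, had 20.1 CPM of *Micu3*, 37.1 CPM of *Micu2*, 23.2 CPM of *Mcu*, 17.6 CPM of *Mcub*, 237 CPM of *Smdt1*, and 67.7 CPM of *Letm1*. These *Mcu* and *Letm1* levels were the highest of the 4 clusters.

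A cluster of 264 cells led by the cell cycle genes *Pclaf*, *Mki67*, and *Top2a* had 22.1 CPM of *Micu3*, 36.8 CPM of *Micu2*, 10.6 CPM of *Mcu*, 5.18 CPM of *Mcub*, 286 CPM of *Smdt1*, and 41.1 CPM of *Letm1*. A cluster of 163 cells led by immunoglobulin genes had 10.4 CPM of *Micu3*, 25.03 CPM of *Micu2*, 7.997 CPM of *Mcu*, 3.82 CPM of *Mcub*, 156 CPM of *Smdt1*, and 20.9 CPM of *Letm1*, nearly all from WT library 2 and KO library 2, which held 54 and 106 of its cells.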

How the results depend on the processing

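No uniporter gene and no other mitochondrial calcium gene was called by genotype under any alternative run, and the number of calls between types was 8 under each. The number of genes called in β cell–like cells was 1 in the reported fit and in each fit without a library, 7 with DESeq2, 9 with no filter on low genes, 3 with β cell–like cells taken by dominant hormone, and 18 with a replicate block, under which the *Smdt1* difference was 0.30 (edgeR adjusted p = 0.189); in other types the block called 45 genes in macrophage, 9 in endothelial, 7 in B, and 4 in δ cell–like cells, against 0 without it. Without single libraries, *Smdt1* to *Mcu* ranged from 0.067 to 0.26. All other values below are log2 differences that passed no test by genotype, or were not called between types, and changed sign. Without single libraries, *Mcub* to *Mcu* in β cell–like cells ranged from -0.0020 to 0.26 and *Micu3* to *Micu2* from -0.20 to 0.023.

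For KO against WT, thinning to 5000 UMIs, without the cells that had fewer, gave -0.015 for *Smdt1* in stellate, -0.086 for *Micu2* in endothelial, -0.30 for *Micu2* in α, and 0.034 for *Micu2* in β cell–like cells. Leiden resolution 2 gave -0.021 for *Mcu* and -0.011 for *Micu2* in α, 0.0024 for *Micu3* in endothelial, and 0.00093 for *Micu2* in β cell–like cells. In δ cell–like cells it gave 0.073 for *Mcu*, 0.0089 for *Micu3*, and -0.078 for *Letm1*. Its δ type took in a cluster of 1113 cells that also held 4 of 7 α markers, so its cells were not those of the reported fit. A mitochondrial limit of 20% gave -0.0033 for *Mcu* in α, -0.045 for *Micu2* in endothelial, and 0.0091 for *Micu2* in β cell–like cells. Without doublet calls, *Mcu* in α was -0.0071 and *Micu2* in B cell–like cells 0.016, where the replicate block gave 0.030. With no KO cell removed for *Ywhaz*, *Micu2* in β was 0.0075, and with cells taken by dominant hormone *Micu2* in δ was 0.031. Between types, *Smdt1* in stellate against β was 0.026 with RLE size factors and 0.040 with free β cell RNA subtracted, *Micu2* in macrophage -0.0082 and -0.0037, and *Mcub* in T cell–like cells 0.018 without hormone and mitochondrial genes and 0.076 without the library block.

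Without single libraries, KO against WT ranged as follows. *Mcu* ranged from -0.13 to 0.43 in stellate, -0.11 to 0.19 in α, and -0.19 to 0.086 in δ cell–like cells. *Mcub* ranged from -0.29 to 0.00023 in macrophage and -0.10 to 0.43 in stellate cell–like cells. *Micu2* ranged from -0.71 to 0.18 in B, -0.13 to 0.089 in endothelial, -0.060 to 0.22 in macrophage, -0.47 to 0.24 in stellate, -0.23 to 0.090 in T, -0.033 to 0.11 in α, and -0.073 to 0.052 in β cell–like cells. *Micu3* ranged from -0.22 to 0.093 in endothelial, -0.11 to 0.019 in α, and -0.19 to 0.0062 in δ cell–like cells. *Letm1* ranged from -0.45 to 0.062 in stellate, -0.018 to 0.34 in α, and -0.036 to 0.033 in δ cell–like cells. Against β cell–like cells, *Smdt1* in stellate ranged from -0.015 to 0.15, *Mcub* in T from -0.066 to 0.079, and *Micu2* from -0.12 to 0.049 in T and -0.020 to 0.093 in α. The genotype difference of *Smdt1* less that in β cell–like cells ranged from -0.064 to 0.064 in B, -0.28 to 0.0062 in macrophage, -0.23 to 0.11 in stellate, and -0.20 to 0.096 in T cell–like cells. The cause of these changes was not tested. All other values of single genes kept their direction, in 700 of 750 values by genotype, 405 of 420 between types, and 47 of 54 of the genotype difference between types. Depth limits the B, T, and stellate sums most, which hold 3 or fewer UMIs of *Mcu* or *Mcub* in some libraries.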
